A study of Ovis aries with 40 samples.

Results

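The genes described here encode the core of the T cell antigen receptor machinery: CD3D, CD3E, CD3G, CD4, CD8A, CD28, LCK and ZAP70. They were taken by name, as a set chosen when earlier results of these data were known, and 7 of the 8 have a row of that name among the 24478 genes of the count tables. ZAP70 is not analysed here. T cells recognise antigen through a receptor whose antigen-binding chains have no signalling domain of their own, and the CD3 chains carry the signal across the membrane. CD4 or CD8 binds the presenting molecule and brings the kinase LCK to the receptor, LCK phosphorylates the CD3 chains, and the kinase ZAP70 docks there. CD28 gives the second, costimulatory signal. T cells mature in the thymus and are found in the lung as circulating and resident cells.

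RNA was sequenced from 40 libraries of proximal and distal lung of American Romney sheep, taken at gestation days 65, 80, 100, 120 and 147 (term), and each genotype, region and day has 2 libraries. The WT animals at term had been born naturally, so in them birth and age cannot be told apart. CF animals (CFTR-/-) were made by somatic cell nuclear transfer from 1 male fetal fibroblast line edited in CFTR exon 2. They are thus clones, and cloning and genotype cannot be told apart. Delivery of the CF animals at term is not described in the sources used here, so at term birth and genotype cannot be told apart either. The labels call the tissue lung epithelial tissue, but frozen lung was homogenised whole, so these are levels in a mixture of cells. In such bulk RNA, fewer T cells and less RNA per T cell cannot be told apart.

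Depth ran from 24670355 to 43700012 counted reads in the 16 WT libraries before term and from 85773994 to 103139483 in the 16 CF libraries before term. At term, depth was 115937437 to 126749480 for the 4 WT libraries and 117316905 to 119451372 for the 4 CF libraries. Before term the genotypes therefore did not overlap in depth. Within each genotype all term libraries were deeper than all earlier ones, with the wider gap in WT. Each comparison of term with earlier days thus sets deeper against shallower libraries. The smallest level that 3 reads allow ran from 0.0237 to 0.122 CPM over the 40 libraries. The 9 lung epithelial markers summed to between 560 and 29884 CPM and the 7 mesenchymal markers to between 2732 and 24823 CPM, so both compartments were read in each library. Both WT libraries at 100 days carry 1 animal label in each region, and by the labels the proximal and distal library of a replicate come from the same animal.

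On the sheep genome Oar_v4.0 the 3 CD3 genes lie side by side on chromosome 15, CD3E from 28465486 to 28476100, CD3D from 28480645 to 28485047 on the opposite strand, and CD3G from 28486481 to 28498431. Only 1433 bases separate CD3D from CD3G and 4544 separate CD3D from CD3E. CD4 lies on chromosome 3 from 207361345 to 207376307, next to the T cell inhibitory receptor gene LAG3, and CD8A lies on the same chromosome from 58337226 to 58344392. CD28 lies on chromosome 2 from 204619649 to 204656079, next to the inhibitory receptor gene CTLA4, and LCK from 234366218 to 234386897. None of the 7 shares exon bases with another gene of the tables, so no read is split by an overlapping exon.

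All the genes but LCK were low through gestation and had higher levels at term in both genotypes and both regions. In each of the 4 tissues (WT proximal, WT distal, CF proximal and CF distal lung) both term libraries lay above all 8 earlier libraries for CD3D, CD3E, CD3G, CD4, CD8A and CD28. Of all genes tested, 23.3% did so in WT proximal, 22.3% in WT distal, 10.9% in CF proximal and 17.8% in CF distal lung. LCK did so in 0 of the 4 tissues. The values below are CPM after TMM scaling.

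**Figure D1:**
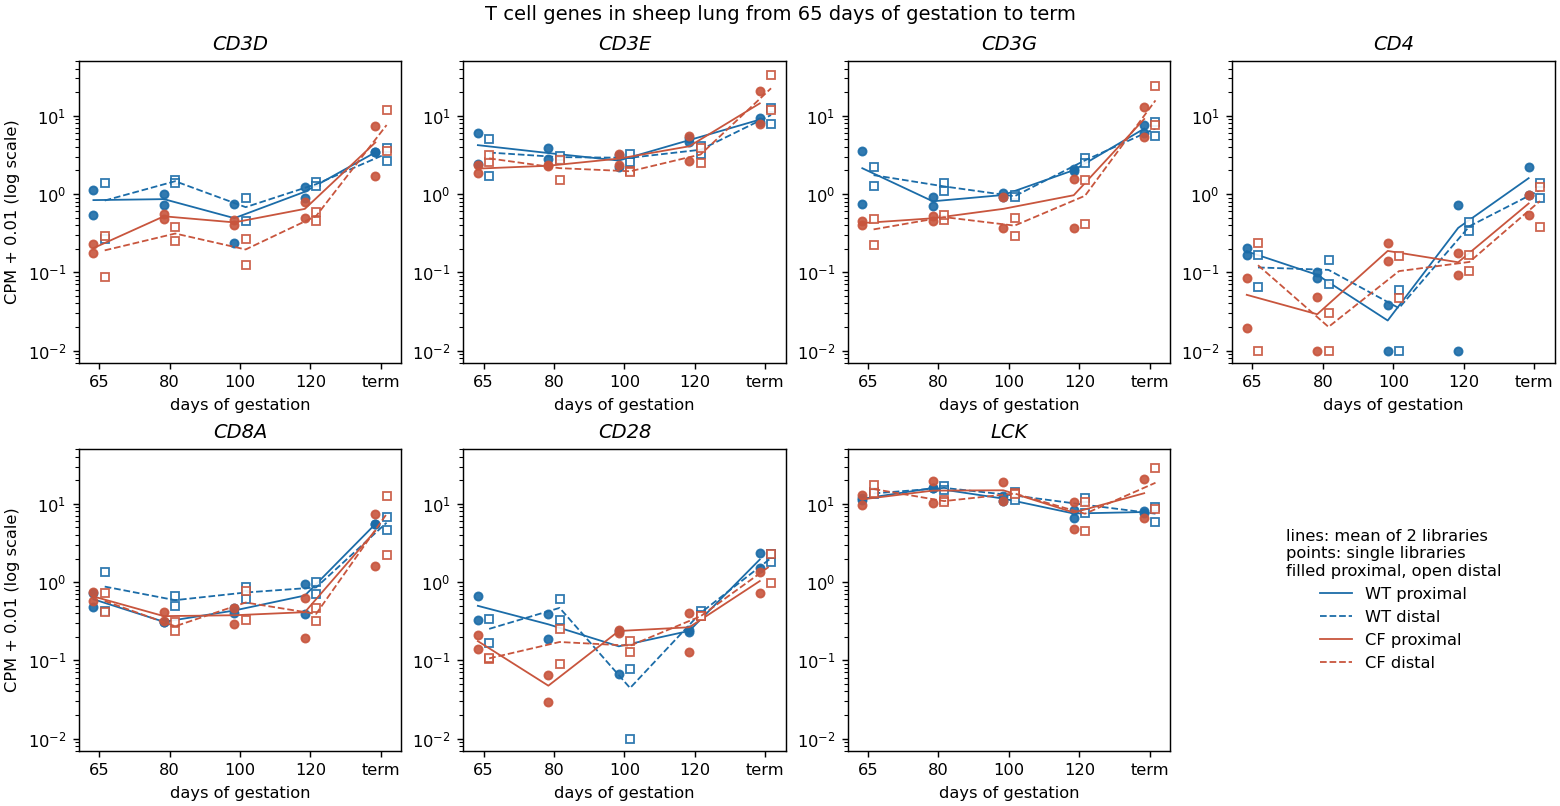
CPM plus 0.01 on a log axis against days of gestation for the 7 T cell genes, with 1 point per library and lines through the mean of 2 libraries, for WT (blue) and CF (red), proximal (filled, solid lines) and distal (open, dashed lines) lung. The term points of 6 genes lie above all earlier points of their tissue, whereas 5 of the 8 term points of LCK lie within the earlier range of their tissue, 2 above it (second CF library of each region) and 1 below it (first WT distal library).

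CD3E, the chain that pairs with both CD3D and CD3G, had the highest level of the 3 and was already readable at 65 days. Before term it ran from 1.71 to 5.99 CPM in WT (median 3.17, n = 16) and from 1.51 to 5.51 CPM in CF (median 2.42, n = 16). At term CD3E was 9.45 and 8.39 CPM in WT proximal, 7.80 and 12.6 in WT distal, 7.87 and 20.9 in CF proximal and 11.9 and 33.0 in CF distal lung. Against the mean of the 4 earlier days its log2 fold change was 1.28 ± 0.31 (SE) in WT proximal, 1.65 ± 0.34 in WT distal, 2.39 ± 0.39 in CF proximal and 3.19 ± 0.33 in CF distal lung. The adjusted p was 0.00757, 0.00408, 0.00691 and 0.000125 in that order.

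CD3D, which pairs with CD3E in the receptor complex, was lower. Before term CD3D ran from 0.225 to 1.51 CPM in WT (median 0.937) and from 0.0783 to 0.790 CPM in CF (median 0.380). At term it was 3.39 and 3.41 CPM in WT proximal, 2.64 and 3.91 in WT distal, 1.70 and 7.39 in CF proximal and 3.49 and 11.7 in CF distal lung. The 2 WT proximal libraries were nearly equal, while the second CF library was 4.35 times the first in proximal and 3.35 times in distal lung. Its log2 fold change at term was 2.13 ± 0.40 in WT proximal, 1.68 ± 0.48 in WT distal, 3.48 ± 0.48 in CF proximal and 4.83 ± 0.48 in CF distal lung (adjusted p 0.00223, 0.0180, 0.00329 and 9.75e-05).

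CD3G, the other partner of CD3E, ran before term from 0.689 to 3.52 CPM in WT (median 1.18) and from 0.215 to 1.56 CPM in CF (median 0.452). At term CD3G was 6.02 and 7.66 CPM in WT proximal, 5.43 and 8.33 in WT distal, 5.37 and 12.8 in CF proximal and 7.64 and 23.8 in CF distal lung. Its log2 fold change was 2.34 ± 0.41, 2.16 ± 0.27, 3.93 ± 0.53 and 4.99 ± 0.47 in the same order of tissues (adjusted p 0.00149, 0.000293, 0.00284 and 7.22e-05). CD3G thus had the larger fitted change in each tissue, from a lower start than CD3E, a difference that was not tested.

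CD8A, one chain of the coreceptor of cytotoxic T cells, was scarce before term, with 0.299 to 1.32 CPM in WT (median 0.544) and 0.186 to 0.758 CPM in CF (median 0.410). At term CD8A was 5.45 and 5.57 CPM in WT proximal, 4.66 and 6.81 in WT distal, 1.59 and 7.42 in CF proximal and 2.22 and 12.6 in CF distal lung. Its log2 fold change was 3.53 ± 0.33 in WT proximal (adjusted p 3.51e-05), 2.93 ± 0.38 in WT distal (0.000316), 3.37 ± 0.57 in CF proximal (0.00756) and 4.15 ± 0.51 in CF distal lung (0.000305). The first CF animal was below all 4 WT libraries at term and the second was above all 4. Without the second, the log2 fold change of CD8A was 1.88 in CF proximal (adjusted p 0.217 by edgeR) and 2.42 in CF distal lung (adjusted p 0.0123).

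CD4, the coreceptor of helper T cells, which macrophages can also carry, sat at the limit of detection. Before term 14 of 32 libraries held 3 reads or fewer and 6 held none, and the highest level was 0.718 CPM. At term CD4 was 2.21 and 0.954 CPM in WT proximal, 1.35 and 0.869 in WT distal, 0.534 and 0.960 in CF proximal and 0.369 and 1.24 in CF distal lung. The ratio of mean CPM at term to mean CPM before was 10.04, 7.35, 8.24 and 9.39 in WT proximal, WT distal, CF proximal and CF distal lung. The fitted log2 fold change was 3.98 ± 0.86, 3.36 ± 0.58, 3.48 ± 0.84 and 3.70 ± 0.98 (adjusted p 0.00444, 0.00151, 0.0303 and 0.0142), and with so few reads it depends on the prior count. With 1 library left out it ran from 3.26 to 5.79, from 3.03 to 4.28, from 3.01 to 4.49 and from 2.59 to 5.30 in these tissues. The highest of these values came without the second WT proximal library of 120 days, the second WT distal library of 100 days, the first CF proximal library of 80 days and the first CF distal library of 65 days. The call of CD4 at 0.05 was lost in WT proximal lung without the first term library (adjusted p 0.0636 by edgeR) and in CF distal lung without the second (0.189). In CF proximal lung it was lost without either term library, either library of 100 days or the second of 65 days (0.0704 to 0.267), and with glmTreat (0.0501).

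CD28, the costimulatory receptor, was also low, with a median of 0.274 CPM in WT and 0.149 CPM in CF before term and 3 reads or fewer in 4 of 32 libraries. At term it was 2.36 and 1.51 CPM in WT proximal, 1.79 and 2.25 in WT distal, 0.718 and 1.32 in CF proximal and 0.971 and 2.30 in CF distal lung. The log2 fold change of CD28 was 2.91 ± 0.48 in WT proximal, 3.36 ± 0.52 in WT distal, 2.86 ± 0.59 in CF proximal and 3.28 ± 0.47 in CF distal lung (adjusted p 0.000990, 0.000902, 0.0164 and 0.000674). Without the first WT distal library of 100 days the value there was 4.31, and without the second CF proximal library of 65 days the call at 0.05 was lost (2.79, adjusted p 0.0590 by edgeR). The change of CD28 in CF minus that in WT was -0.05 ± 1.16 in proximal and -0.09 ± 0.74 in distal lung. An SE derived from the F statistic is unsteady for values this near 0.

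LCK, the kinase that starts receptor signalling, took another course. At 65 days it was 11.97 and 11.2 CPM in WT proximal, 14.0 and 13.2 in WT distal, 13.1 and 9.70 in CF proximal and 13.8 and 17.2 in CF distal lung. At 80 days LCK was 16.0 and 15.9, 17.04 and 14.9, 19.3 and 10.2, and 11.1 and 10.5 CPM in the same order. At 100 days it was 12.5 and 10.8, 14.2 and 11.3, 10.7 and 19.1, and 13.6 and 13.5 CPM. The level thus stayed between 9.70 and 19.3 CPM through these 3 time points.

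At 120 days LCK was 6.64 and 8.40 CPM in WT proximal, 7.72 and 11.7 in WT distal, 4.81 and 10.7 in CF proximal and 4.4997 and 10.4 in CF distal lung. At term it was 7.59 and 8.13, 5.86 and 9.10, 6.61 and 20.7, and 8.60 and 28.6 CPM. Against the mean of the earlier days the log2 fold change of LCK was -0.52 ± 0.16 in WT proximal (adjusted p 0.0249, short of the fold limit) and -0.80 ± 0.24 in WT distal lung (adjusted p 0.0223). In WT distal lung it thus fell at the 0.05 limit, as did 16.6% of all genes tested. That call was lost without the first WT distal library of term (-0.50, adjusted p 0.143), with glmTreat (adjusted p 0.217) and with all 40 libraries in 1 fit (adjusted p 0.160). In CF it was 0.20 ± 0.50 in proximal (adjusted p 0.831) and 0.71 ± 0.39 in distal lung (adjusted p 0.168), and without the second CF term library it was -0.84 and -0.39. Without the first it was 0.80 in proximal and 1.32 in distal lung, the latter past the 0.05 limit (adjusted p 0.0166).

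Set against the mean of CD3D, CD3E and CD3G in the same library, each per kilobase of exon, LCK was 2.02 to 11.1 times as high at 65 to 100 days (median 6.18, 24 libraries). The ratio was 1.48 to 3.31 at 120 days (8 libraries) and 0.703 to 0.966 at term (8 libraries). The 3 ranges did not overlap except between 2.02 and 3.31. The term libraries agreed within a narrow range although the second CF animal had more than 3 times the LCK of the first in both regions.

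**Figure D2:**
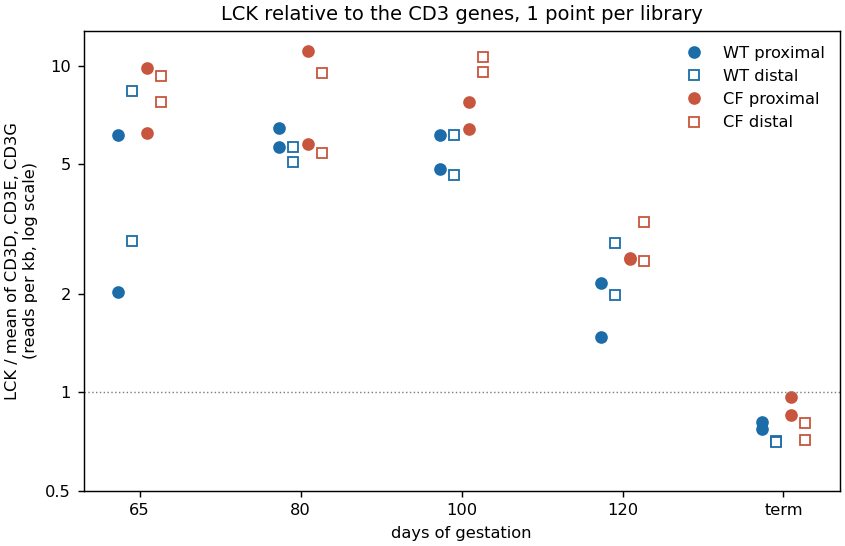
Reads per kilobase of LCK divided by the mean of CD3D, CD3E and CD3G, on a log axis, against days of gestation, 1 point per library in the 4 tissues. All 8 term libraries lie below 1, between 0.703 and 0.966, and all 32 earlier libraries lie above it.

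The 28 tests of term against the mean of the earlier days (7 genes in 4 tissues) were made by edgeR's quasi-likelihood test, and calls needed an adjusted p no larger than 0.001 together with a change of at least 0.58 on the log2 scale, up or down. Called higher were CD8A and CD28 in WT proximal lung, CD3G, CD8A and CD28 in WT distal lung, none in CF proximal lung, and CD3D, CD3E, CD3G, CD8A and CD28 in CF distal lung. Of all genes, 10.8% were called higher in WT proximal, 9.77% in WT distal, 0.559% in CF proximal and 6.69% in CF distal lung. At the looser limit of 0.05, the same 6 genes were called higher in each tissue, against 20.4%, 20.9%, 8.21% and 22.5% of all genes. Both WT libraries of 100 days carry 1 animal label, and with their counts summed to 1 library the calls at the stricter limit were 6, with CD8A alone left in WT proximal lung and 0 in WT distal lung, while the looser calls stayed. In CF proximal lung 0 of 7 tests passed the stricter limit while 6 passed an unadjusted p of 0.05, as did 29.3% of all genes. DESeq2 called 20 of all 28 tests at the stricter limit, against 23.4% of all genes in either direction.

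The second CF term library decided much of the CF result. Its level was above that of the first for all 7 genes in both regions, by 1.80 to 5.69 times, whereas in WT the same ratio ran from 0.431 to 1.62. Without it, 0 genes passed the looser limit in CF proximal lung, and in CF distal lung 5 passed the looser and 0 the stricter limit. The log2 fold changes of CD3D, CD3E and CD3G were then 2.06, 1.52 and 3.18 in proximal and 3.71, 2.28 and 3.96 in distal lung. Those of CD4 and CD28 were then 3.01 and 2.36 in proximal and 2.59 and 2.54 in distal lung. In that animal the cytotoxic and NK cell list summed to 225 and 345 CPM in proximal and distal lung against 71.2 and 97.5 CPM in the first, and the B cell list to 192 and 288 CPM against 50.0 and 62.6 CPM. The lung epithelial markers were lower in it, with 9579 and 7388 CPM against 24613 and 29884 CPM. Their part in the T cell gene levels was not tested. In WT proximal lung, leaving out the first term library left 4 genes at the looser limit, without CD3E (1.20, adjusted p 0.0550) and CD4. In WT distal lung, leaving out the second term library lost CD3D (1.32, adjusted p 0.154) and CD3E (1.22, adjusted p 0.0661) at that limit, and glmTreat lost CD3D (adjusted p 0.0622). In WT distal lung, at the stricter limit, 0 of the 3 calls were left without either library of 80 or 120 days, the second of 100 days or the second of term. At that limit CD3D, CD3E and CD3G, 3 of the 5 genes called in CF distal lung, were called whichever earlier library was left out, and all 5 were without the first term library. In WT proximal lung CD8A was called in each such fit and CD28 in none.

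**Figure D3:**
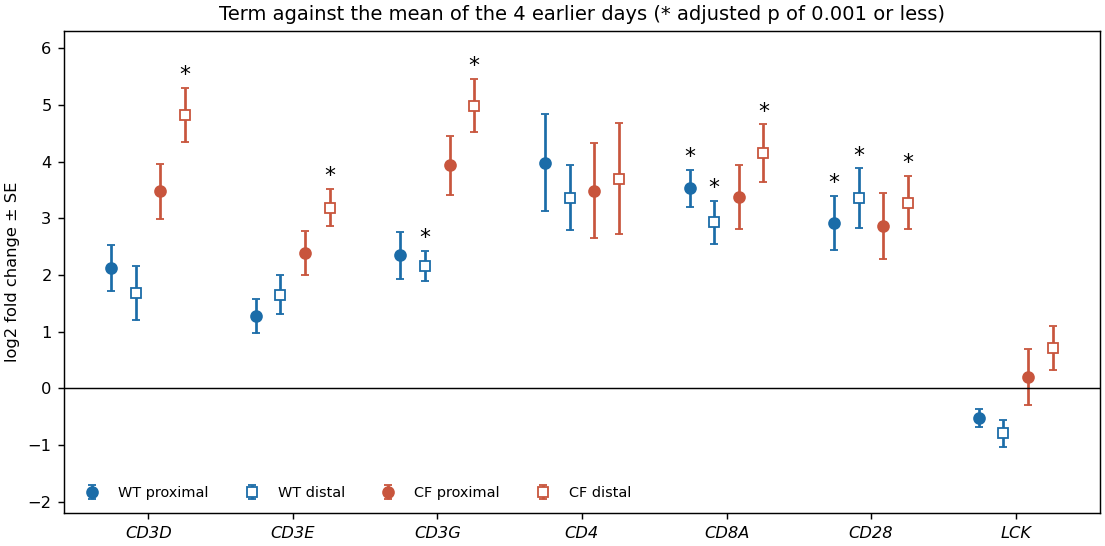
Log2 fold change at term against the mean of the 4 earlier days, with its SE, for the 7 T cell genes in the 4 tissues. The 6 genes other than LCK lie above 0 in each tissue, and LCK lies below 0 in WT.

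From 120 days to term alone, the changes had the same direction for the 6 genes but fewer were called. At 0.001 no T cell gene was called, against 1.2% of all genes called higher in WT proximal, 0.624% in WT distal, 0% in CF proximal and 0.082% in CF distal lung. At that step 18 of 28 tests had an unadjusted p under 0.05, against 32.8% of all tests, and DESeq2 called 6, against 10.3%. At 0.05, CD28 (3.07 ± 0.75) and CD8A (3.05 ± 0.51) were higher in WT proximal and CD3G (1.35 ± 0.39) and CD8A (2.76 ± 0.58) in WT distal lung, against 11.3% and 11.8% of all genes. The call of CD3G was lost with all 40 libraries in 1 fit (adjusted p 0.224 by edgeR), with glmTreat (0.145), with thinned counts (0.0823) and with the WT libraries of 100 days summed (0.0704). It was also lost without either library of 80, 100 or 120 days and without the second of term (0.96, adjusted p 0.202). That of CD8A in WT distal lung was lost without either library of 120 days, and that of CD28 in WT proximal lung without either of these or the first of term. In CF distal lung CD3D, CD3E, CD3G and CD8A were higher, with log2 fold changes of 3.88, 2.81, 4.07 and 4.25, against 11.5% of all genes. Without the second CF term library only CD3E passed (1.90, adjusted p 0.0457). In CF proximal lung none was, against 0.0762%, with log2 fold changes of 1.79 to 3.44 for the same 6 genes. Leaving out any 1 library gave 1 to 3 calls in WT proximal, 0 to 4 in WT distal, 0 to 1 in CF proximal and 0 to 6 in CF distal lung, with 0 without either WT distal library or the first CF distal library of 120 days.

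Before term the T cell genes had no called change. Over the 12 comparisons of consecutive days from 65 to 120, 0 of 84 tests were called by edgeR at 0.001 or at 0.05, against 0.00925% and 0.716% of all tests. Unadjusted, 9 of the 84 had a p under 0.05, against 9.61%, and DESeq2 called 0 at the stricter limit, against 0.995%. The smallest adjusted p was that of CD3G in WT distal lung from 100 to 120 days, where it went from 0.961 and 0.893 to 2.89 and 2.47 CPM (log2 fold change 1.53 ± 0.41, adjusted p 0.0921). From 65 straight to 120 days, 0 of 28 were called at either limit, against 1.23% and 11.4% of all tests. Here 3 had an unadjusted p under 0.05, against 27.6%, and the smallest adjusted p was that of LCK in WT proximal lung (-0.63 ± 0.20, adjusted p 0.0533).

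CF and WT lung were compared to ask whether loss of CFTR went with other levels of these genes before and at term. Averaged over 65 to 120 days, CD3D and CD3G were lower in CF distal lung. In the order of 65, 80, 100 and 120 days, CD3D was 0.259 and 1.37, 1.51 and 1.39, 0.892 and 0.447, and 1.40 and 1.25 CPM in WT distal lung. In CF distal lung CD3D was 0.283 and 0.0783, 0.241 and 0.365, 0.112 and 0.259, and 0.442 and 0.584 CPM. Of the 8 CF values, 7 lay below 7 of the 8 WT values, and the lowest WT value lay inside the CF range.

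CD3G over the same days was 1.27 and 2.20, 1.39 and 1.10, 0.961 and 0.893, and 2.89 and 2.47 CPM in WT distal lung. In CF distal lung it was 0.471 and 0.215, 0.461 and 0.533, 0.281 and 0.488, and 0.400 and 1.48 CPM. Apart from the last CF library, the CF values of CD3G lay below all 8 WT values. The log2 fold change of CF against WT was -1.91 ± 0.40 for CD3D (adjusted p 0.00214) and -1.61 ± 0.32 for CD3G (adjusted p 0.00155) in distal lung. In proximal lung it was -0.94 ± 0.35 for CD3D (adjusted p 0.0715) and -1.19 ± 0.38 for CD3G (adjusted p 0.0400).

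At 0.001, 0 of the 14 tests of CF against WT before term were called by edgeR, against 0.369% of all genes called lower in proximal and 1.65% in distal lung, and 5 had an unadjusted p under 0.05, against 37.8%. DESeq2 called 2, against 10.8% of all tests in either direction, and the replicate block 1, against 5.05%. At 0.05, CD3G was lower in proximal (3.21% of all genes were lower) and CD3D and CD3G in distal lung (6.48% of all genes). With counts thinned to the smallest library, CD3D was -1.68 and CD3G -1.78 in distal lung, and in proximal lung both CD3D (-1.22) and CD3G (-1.14) passed 0.05. The distal calls passed 0.05 whichever library was left out, and the proximal call of CD3G did not pass in most such fits, for example at an adjusted p of 0.139 without the second WT library of 65 days. With the 2 WT libraries of 100 days summed, the adjusted p of CD3G in proximal lung was 0.0681. In the same distal comparison, where 6.48% of all genes were lower and 11.5% higher, 7 of 18 monocyte and macrophage genes were lower and 1 higher in CF at 0.05 (median log2 fold change -0.58), and of 13 leukocyte genes 3 were lower and 1 higher (median -0.08). All 7 mesenchymal genes had positive values there, 3 of them called higher, and the part of these cells in the CD3 difference was not tested. Of 20 T cell receptor signalling genes 6 were lower and 1 higher there (median -0.61). Of 15 T cell surface genes 2 were lower and 1 higher (median -0.63), and of 19 homing and cytokine receptors 1 and 1 (median -0.40). Of 14 T cell transcription factors 0 were called (median -0.03). The other 5 of the 7 T cell genes were not called, with log2 fold changes from -0.87 to 0.06 in proximal and from -0.83 to -0.17 in distal lung.

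**Figure D4:**
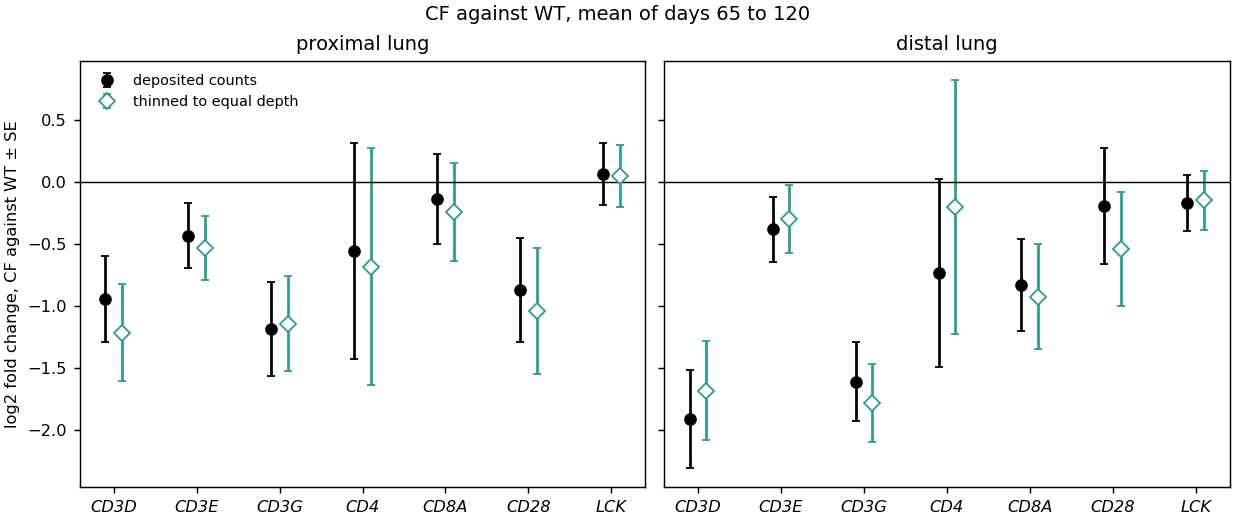
Log2 fold change of CF against WT over the mean of days 65 to 120, with its SE, for the 7 T cell genes in proximal and distal lung, from the deposited counts (filled circles) and from counts thinned to equal depth (open diamonds). CD3D and CD3G lie lowest in distal lung in both, and LCK lies near 0.

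At single days before term, 0 of 56 tests of genotype were called at either limit, against 0.06% and 2.75% of all tests, with 8 at an unadjusted p under 0.05, against 17.3%. The nearest was CD3G in distal lung at 65 days (-2.34 ± 0.65, adjusted p 0.0510). At term 0 of 14 were called, against 0.792% and 10.2%, with 2 at an unadjusted p under 0.05, against 25.2%. DESeq2 also called 0 at the stricter limit in both, against 1.94% of all tests before term and 6% at term. The widest term difference was that of LCK in distal lung, 1.34 ± 0.46 (adjusted p 0.0642), and the 3 CD3 genes there were between 1.16 and 1.24. With 2 animals of each genotype at term, differences of this size were not separated from the spread.

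The change itself was also compared between genotypes. From 120 days to term 0 of 14 differences in change were called, against 0.116% and 5.52% of all tests, with 3 at an unadjusted p under 0.05, against 20.8%, and 0 called by DESeq2, against 3.17%. A comparison of the change from the mean of the earlier days, chosen after the courses had been seen, gave 0 of 14 at 0.001 and 2 of 14 at 0.05, against 0.641% and 10.9%. These 2 were CD3D (3.15 ± 0.85, adjusted p 0.0212) and CD3G (2.83 ± 0.69, adjusted p 0.0130) in distal lung, both with the larger change in CF. For LCK the same difference was 1.505 ± 0.51 (adjusted p 0.0557) in distal lung. Without the second CF term library the adjusted p was 0.179 for CD3D and 0.135 for CD3G.

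No T cell gene was called between proximal and distal lung. At single days 0 of 70 were called at either limit, against 0% and 0.00154% of all tests, and 1 had an unadjusted p under 0.05, against 2.32%. Averaged over days 0 of 14 were called, against 0.00257% and 0.0103%, and again 1 had an unadjusted p under 0.05, CD8A in WT (-0.53 ± 0.25, lower in proximal), against 3.16%. DESeq2 called 0 as well, against 0.0201% at single days and 0.0232% averaged, and so did the fit that pairs regions by animal.

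Per kilobase of exon, the levels before term ran in the order LCK (median 5.49 CPM per kb), CD3E (2.10), CD3G (0.591), CD3D (0.380), CD8A (0.223), CD4 (0.0585) and CD28 (0.0381) over 32 libraries. At term the order was CD3E (8.08), CD3G (5.04), LCK (3.88), CD8A (2.71), CD3D (2.597), CD4 (0.714) and CD28 (0.287) over 8 libraries. The ranges of each pair of neighbours overlapped, but within a library CD3E was above CD3G in 32 of 32 libraries before term and in 8 of 8 at term. CD8A was above CD3D in all 4 WT libraries at term and below it in all 4 CF libraries, which come from 2 animals of each genotype. Of the 7, LCK moved from above CD3E in 31 of 32 libraries to below CD3G in 7 of 8.

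Across the 40 libraries, which share the step to term, log2 CPM of the CD3 genes correlated at Pearson r of 0.88 to 0.93 with each other, and LCK at -0.03 to 0.03 with them. Over the 32 libraries before term, CD3D and CD3G still correlated at 0.79, CD3D and CD3E at 0.64 and CD3E and CD3G at 0.70, while LCK stood at -0.13 to -0.06. Between the 2 replicates of a condition, a measure that holds age and genotype fixed, LCK did move with the CD3 genes. Its r was 0.47, 0.52 and 0.56 with CD3D, CD3E and CD3G over 20 conditions. CD4 moved with none of the CD3 genes by that measure (-0.05 to 0.19), at the low counts given above. By the labels the proximal and distal conditions of a genotype and day share their animals, so the 20 differences are not independent. Both WT libraries of 100 days in a region carry 1 animal label. The 2 CF animals of term enter in both regions, with LCK 3.14 and 3.33 times as high in the second.

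Among the 10 genes outside the 8 whose log2 CPM was most like the mean of the 7 were LOC105615131 (r = 0.94), LOC101101888 (0.94), RAC2 (0.93), FYB (0.92), CAPZB (0.92), IL2RG (0.92), SEPT1 (0.92), CALCOCO2 (0.91) and LOC101113965 (0.91) over 40 libraries, of 14865 genes compared. RAC2 is a small GTPase of blood cells, FYB a T cell adaptor and IL2RG the common chain of several interleukin receptors. Over the 32 libraries before term SMYD3 (0.82), LOC105615131 (0.82), LOC101113965 (0.81), LOC101101888 (0.80) and the T cell attracting chemokine CXCL9 (0.79) came first.

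Beside the members, the receptor complex is represented by CD247, the zeta chain on which ZAP70 docks, and PTCRA, the surrogate chain of immature thymocytes. Neither was called at 0.001, and at 0.05 CD247 was higher in CF distal lung (0.74) and in no other tissue. CD247 was 5.81 to 9.80 CPM in WT and 4.25 to 8.9994 CPM in CF before term, and 7.82 to 9.38 and 8.99 to 13.1 CPM at term. It was thus, like LCK, well above the CD3D level before term, and changed little.

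CD8B, the partner chain of CD8A, was lower at 120 than at 65 days in both genotypes, and in WT higher at term than at 120 days. Its difference from CD8A was not tested. In CF it was 13.8 to 23.7 CPM at 65 days, 3.09 to 9.71 CPM at 120 days and 4.10 to 17.1 CPM at term (4 libraries each). In WT it was 6.43 to 9.36, 0.749 to 1.64 and 3.68 to 7.83 CPM. Averaged over the days before term CD8B was higher in CF than in WT, with log2 fold changes of 1.77 ± 0.28 in proximal and 1.71 ± 0.28 in distal lung, called at 0.001 in both, as were 2.13% and 5.21% of all genes. At term against the earlier days CD8B was higher at 0.05 in WT proximal lung (1.04) and not called in the other 3 tissues.

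Of the 20 T cell receptor signalling genes, 14 were higher and 1 lower at term in WT proximal lung at 0.05. The counts were 13 and 1 in WT distal lung (of 19 tested), 12 and 1 in CF proximal and 17 and 1 in CF distal lung. Of all genes tested, 20.4%, 20.9%, 8.21% and 22.5% were higher and 15.1%, 16.6%, 5.79% and 18.8% lower at that limit in the same order of tissues. At 0.001 the counts were 6 and 1, 2 and 1, 0 and 0, and 6 and 1, against 10.8%, 9.77%, 0.559% and 6.69% of all genes higher and 5.87%, 5.59%, 0.239% and 2.9% lower. The median log2 fold change of the list was 1.86, 1.76, 1.72 and 2.29, against 0.03, 0.03, -0.09 and -0.04 over all genes. The CD45 phosphatase PTPRC, which all leukocytes carry, was higher by 3.75, 2.85, 3.07 and 3.31. The adaptor LCP2 (SLP-76) was higher by 2.48, 1.57, 1.74 and 2.25. FYN, a kinase related to LCK and not limited to T cells, was not called in any tissue, with values from -0.53 to -0.13, short of the fold limit.

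**Figure D5:**
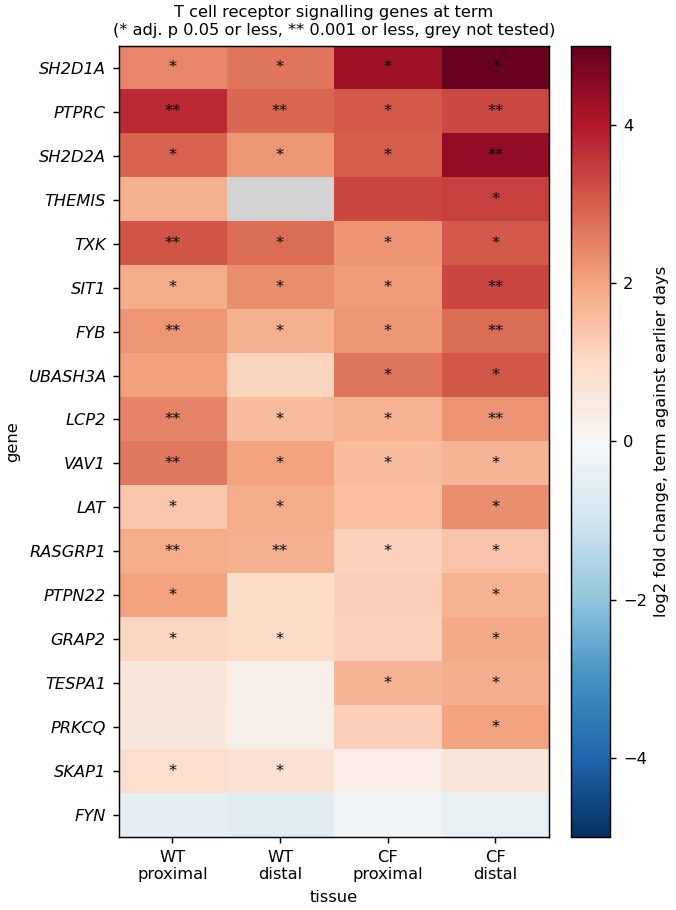
Log2 fold change at term against the mean of the 4 earlier days for 18 of the 20 T cell receptor signalling genes (rows) in the 4 tissues (columns), red where higher and blue where lower at term, with stars for adjusted p. Most rows are red in each column.

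Among 15 T cell surface and costimulatory genes, 8 were higher and 1 lower in WT proximal and 5 and 0 in WT distal lung at 0.05. The counts were 7 and 0 in CF proximal and 10 and 0 in CF distal lung. Of all genes, 20.4%, 20.9%, 8.21% and 22.5% were higher and 15.1%, 16.6%, 5.79% and 18.8% lower. At 0.001 only SLAMF6 (4.48), CD2 (4.02) and CD5 (3.48) in CF distal lung were called, 3 of the 15 against 6.69% of all genes. CTLA4, the inhibitory counterpart and neighbour of CD28, was not called in any tissue, with values from -2.08 to 0.40. LAG3, an inhibitory receptor that binds the same ligand as CD4, was not called at term either. In CF before term LAG3 was higher by 2.51 in proximal and 1.87 in distal lung, both called at 0.001, as were 2.13% and 5.21% of all genes. It was 0.276 to 1.48 CPM in WT and 2.20 to 6.38 CPM in CF over these days. Of the 15 genes, LAG3 alone was higher at 0.05, against 10.9% and 11.5% of all genes in proximal and distal lung. Lower were 1 and 2 of the 15, against 3.21% and 6.48%, and the list medians were 0.04 and -0.63.

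Of 19 homing and cytokine receptors, 12 were higher and 1 lower at term in WT proximal and 11 and 1 in WT distal lung at 0.05. The counts were 9 and 0 in CF proximal and 15 and 1 in CF distal lung. Of all genes, 20.4%, 20.9%, 8.21% and 22.5% were higher and 15.1%, 16.6%, 5.79% and 18.8% lower. IL2RG was higher by 3.98, 3.54, 3.30 and 3.81, and the IL-7 receptor IL7R by 3.56, 3.14, 2.62 and 3.76. CXCR4, which many cell types carry, was lower in WT (-1.23 and -1.47) and higher at 0.05 in CF distal lung (0.78). Of 14 T cell transcription factors (12 tested in WT), 6 were higher in each of WT proximal, WT distal and CF proximal lung and 7 in CF distal lung, and 2, 2, 0 and 1 were lower (15.1%, 16.6%, 5.79% and 18.8% of all genes). Higher in each were RUNX3 (5.17, 4.08, 2.80 and 3.62) and IKZF1 (2.90, 2.89, 2.46 and 2.79). BACH2 was lower in WT proximal (-1.05), WT distal (-1.26) and CF distal lung (-1.21). FOXP3 (-0.25 to 0.09), which marks regulatory T cells, and TCF7 (-0.04 to 0.50), which marks naive T cells, were not called.

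Of 15 chemokines that draw T cells, 8 were higher and 2 lower in WT proximal and in WT distal lung at 0.05 (14 tested in each tissue). The counts were 4 and 0 in CF proximal and 8 and 0 in CF distal lung. Of all genes, 20.4%, 20.9%, 8.21% and 22.5% were higher and 15.1%, 16.6%, 5.79% and 18.8% lower. CXCL16 was higher by 3.55, 3.40, 3.92 and 4.28 and called at 0.001 in each tissue. CCL17 held 0 to 16 reads in a library before term and was 1.35 to 2.54 CPM in WT and 0.221 to 0.654 CPM in CF at term. The interferon-induced CXCL11 was lower in WT proximal (-2.37) and WT distal lung (-2.19), and was not called in CF proximal (-2.12, adjusted p 0.0513 by edgeR) or CF distal lung (-0.23). Before term, of 14 chemokines tested in distal lung, 3 were lower and 1 higher in CF than in WT at 0.05, against 6.48% of all genes lower and 11.5% higher. Lower were CXCL9 (-2.04) and CXCL11 (-1.41), both called at 0.001, and CXCL10 (-1.26), and higher was CCL25 (0.65). In proximal lung 3 of 15 were lower and 1 higher, against 3.21% and 10.9%.

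Markers of other cells moved in the same step. The monocyte and macrophage list (18 genes) summed to 149 to 269 CPM in WT and 113 to 247 CPM in CF before term, and to 1149 to 2324 and 372 to 608 CPM at term. The list of all leukocytes (13 genes) summed to 125 to 392 and 113 to 565 CPM before term and to 944 to 1712 and 930 to 1287 CPM at term. The cytotoxic and NK cell list (16 genes) went from 11.996 to 28.0 and 11.2 to 41.0 CPM before term to 117 to 233 and 71.2 to 345 CPM at term. The neutrophil list (9 genes) went from 9.59 to 35.0 and 5.37 to 38.3 CPM to 67.7 to 385 and 20.2 to 174 CPM. At 0.05 the macrophage genes were higher in 17, 16, 13 and 15 of 18 and the leukocyte genes in 13, 12, 11 and 12 of 13, in WT proximal, WT distal, CF proximal and CF distal lung, against 20.4%, 20.9%, 8.21% and 22.5% of all genes. The part of these cells in the T cell gene changes was not tested.

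B cell genes (13 genes) summed to 38.3 to 101 and 86.7 to 182 CPM before term and to 68.8 to 98.2 and 50.0 to 288 CPM at term, in WT and CF. The counts of genes higher at 0.05 in the following lists stand against 20.4%, 20.9%, 8.21% and 22.5% of all genes in the same order of tissues. Dendritic cell genes were higher in 8, 8, 6 and 8 of 12, neutrophil genes in 6, 6, 6 and 8 of 9 and gamma delta T cell genes in 2 of 4 in each tissue, with 1 lower in each tissue but CF proximal lung, and many markers of that lineage are not analysed here. Erythroid genes were lower in 7, 7, 3 and 6 of 8 at 0.05, against 15.1%, 16.6%, 5.79% and 18.8% of all genes. Of the recombination genes, which mark immature lymphocytes, RAG1 held 0 to 14 and RAG2 0 to 8 reads in a library and neither was tested, while DNTT and ARPP21 were not called. Thymic epithelial genes (4 genes) summed to at most 1.21 CPM in any library. Endothelial genes were higher in 1, 1, 3 and 3 of 6, lung epithelial genes in 8, 7, 5 and 9 of 9, and mesenchymal genes in 2, 2, 0 and 0 of 7. Lower at the same limit were 0, 0, 1 and 1 endothelial, 0 lung epithelial and 5, 5, 0 and 4 mesenchymal genes. B cell genes were higher in 3, 4, 3 and 7 and lower in 2, 2, 1 and 1 of the 12, 12, 13 and 13 tested.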

How the data were processed

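The deposited counts are raw reads per gene, which the authors made by STAR alignment to Oar_v4.0 of paired reads of 100 bp, followed by featureCounts 1.6.3. The STAR version is 2.6 in the submitters' processing notes and differs in the methods, and the strand setting is not given in the sources used here. Among counts of 1 to 20, 69.2% to 85.8% were even in each library, as when both mates are counted. Another table repeats the CF counts and was not used. Genes were matched by symbol.

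The tools were R 4.3.3, edgeR 4.0.16 and, as an alternative, DESeq2 1.42.0. The filter filterByExpr was applied (count minimum 10, total minimum 15) followed by TMM scaling. Each time course (10 libraries), region (20 libraries, for genotype) and genotype (20 libraries, for region) was fitted with 1 mean per condition and tested by glmQLFTest, and p-values were adjusted by Benjamini-Hochberg across every gene that a comparison tested. Limits were an adjusted p of 0.001, as in the study, or 0.05, with a log2 fold change of 0.58. P-values and SE measure only the spread between these samples, and limits of detection cover counting error only. The SE was derived from the log2 fold change and the F statistic of its test. CPM are after TMM over all 40 libraries. The fits were also run on simulated data, with results not given here. The simulated replicates were independent, so that run cannot test effects of shared animal labels or cloning. 1 animal label occurs both in WT (65 days, replicate 2) and in CF (100 days, replicate 2), and the titles decided those groups.

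The genes and the 20 gene lists were chosen with earlier results of these data known. Other genes named are, in each list, called genes with the largest change (at most 4 each way), and the 10 genes most like the members, by Pearson r of log2 CPM to the members' standardised mean. CD8B, CD247, PTCRA, CTLA4, FYN, FOXP3, TCF7, DNTT, ARPP21, RAG1 and RAG2 were singled out after their values were seen. Regions of an animal are paired by label, and replicate differences of the 2 regions correlated across genes at -0.47 to 0.85. Results of some genes that this rule names are not reported here.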

Additional observations from a re-analysis of the deposited data

Results flagged for a closer look

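In distal lung the change of CD3D from the mean of 65 to 120 days to term was larger in CF than in WT by 3.15 on the log2 scale (SE 0.85, adjusted p 0.0212 by edgeR), which is a difference between genotypes under the same contrast. CD3G differed likewise by 2.83 (SE 0.69, adjusted p 0.0130). The comparison was chosen after seeing the data. Without the second CF distal library of term the differences were 2.01 (adjusted p 0.179) and 1.77 (adjusted p 0.135). Without the first WT distal library of term they were 2.86 (adjusted p 0.114) and 2.52 (adjusted p 0.0870), and without the second that of CD3D was 3.43 (adjusted p 0.0582). The CF levels of both genes were also below those of WT before term, which enters the same difference.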

How the results depend on the processing

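All 38 T cell gene values past an adjusted p of 0.05 kept their direction under each alternative and left-out library that gave them a value (2 were not tested in thinned counts), and 16 stayed past it in all of these. Of 28 tests of term against the earlier days, 10 passed the 0.001 limit, against 20 with DESeq2, 20 with a limit of 0.01, 25 with a limit of 0.05, 6 with glmTreat and 6 with the 2 WT libraries of 100 days summed. Leaving out 1 library gave 5 to 11. From 120 days to term the count of 0 became 6 with DESeq2, 8 and 2 with limits of 0.05 and 0.01, 2 with all 40 libraries in 1 fit and 1 with the bias-adjusted quasi-likelihood. For CF against WT before term the count of 0 became 2 with DESeq2, 3 and 2 with limits of 0.05 and 0.01, and 1 each with thinned counts, all libraries in 1 fit and the replicate block, and 0 to 1 with 1 library left out. The difference between genotypes in the change from the earlier days gave 1 with DESeq2 and 2 with a limit of 0.05. In CF, LCK at term reversed to -0.84 in proximal and -0.39 in distal lung without the second term library, and over all left-out libraries it ran up to 0.80 and 1.32. DESeq2 called 23.4% of all tests for term against the earlier days, 10.3% from 120 days to term and 10.8% for CF against WT before term. For most other settings the share of all genes is not given here. These counts therefore cannot be read as particular to the T cell genes. Of these shifts the cause was not tested.

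With the replicate block, 7 of 28 tests passed for term against the earlier days, where the share of all genes is not given here. In no other comparison but CF against WT before term did the block change a count. Samples that share only a number across days or genotypes are not pairs. Proximal and distal libraries are paired by animal label, and exchanging the distal labels in CF at 65 and 80 days, where the replicate differences ran opposite, also gave 0 calls between regions (chosen after seeing the data). Depth limits CD4 and CD28 before term, where 3 reads stand for 0.0687 to 0.122 CPM in WT and 0.0291 to 0.0350 CPM in CF.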

Other observations

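At term CD8A stood in a nearly fixed ratio to the mean of the 3 CD3 genes in WT lung, 0.559 to 0.600 per kilobase of exon in the 4 libraries, whereas in the 4 CF libraries it was 0.196 to 0.376. These are 2 animals of each genotype, and the difference was noticed in the data and was not tested. At 65 to 100 days the ratio ran from 0.113 to 0.632 over 24 libraries at low counts. CD3E was 1.89 to 40.3 times CD3D per kilobase at 65 to 100 days and 2.48 to 4.67 times at term.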
